A study of Mus musculus with 6 samples.

Results

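The genes described here encode the machinery that licenses and copies chromosomal DNA: the MCM helicase, the factors that load and activate it at origins, the sliding clamp and its loader, the replicative polymerases, the enzymes that finish the lagging strand, and the factors that restore DNA methylation and chromatin behind the fork. They were chosen as a named list of 44 genes, and each matched 1 of the 52636 gene rows of the count tables by symbol, through mm10 gene models. The tissue was the parotid, a salivary gland, of mice of the inbred strain FVB with a labelled age of 28 days, and its total RNA was sequenced. There were 3 irradiated samples, whose mice had received a single dose of 5 Gy, and 3 untreated samples, which share the strain, the age and the tissue. The protocol text with the dose stands on all 6 samples, and it was taken to apply to those whose treatment label is treated. The labels do not say whether the age is that at irradiation or at collection, and give no time between the dose and collection. Whether the 3 samples of a group are 3 animals is not stated, so the p-values reflect only how far these samples vary, which may be technical.

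Before a cell copies its DNA, the origin recognition complex, CDC6 and CDT1 load the MCM2-7 helicase onto origins as an inactive ring, a step that geminin blocks once replication has begun. The kinase CDC7 with its partner DBF4, MCM10, CDC45 and the GINS complex then turn the ring into the active helicase of the fork, where polymerase alpha with primase starts each strand and the clamp PCNA holds polymerases delta and epsilon on the template. Many of these genes are known targets of the E2F transcription factors and are transcribed around the entry into S phase, so their RNA is commonly read as a sign of proliferating cells. Acinar cells, the secretory cells that make up most of the parotid gland, divide seldom in the adult animal. That may not hold at the labelled age of 28 days, and cell division was not measured here.

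Of the 38 of these genes that were tested, 3 rose in irradiated glands and 0 fell, at an edgeR adjusted p under 0.05. Of all tested genes 0.652% rose and 0.349% fell. All 3 encode helicase subunits: Mcm5, Mcm3 and Mcm2, at 3.33-fold, 2.62-fold and 1.82-fold of the untreated level. None of the 3 passed without irradiated replicate 1 or by limma-voom. The promoters of these 3 genes are shown because they are the ones that passed, and that of Cdc6 because it had the largest fold change of those tested, although it did not pass. Each sequence is the RefSeq window from 250 bases before to 50 bases after the annotated start, build GRCm38.p6 (mm10), read 5′ to 3′ on the strand of the gene. The windows are chr8:75109259-75109558 on the plus strand, chr1:20820263-20820562 and chr6:88898731-88899030 on the minus strand, and chr11:98907901-98908200 on the plus strand. Capitals mark matches on either strand to an E2F-like motif (TTTGGCGC, TTTCCCGC, TTTGGCGG, TTTCCCGG, TTTGCCGC or TTTCGCGC), to CCAAT, the box bound by the factor NF-Y, or to TTTGAA, the cell cycle homology element.
Mcm5: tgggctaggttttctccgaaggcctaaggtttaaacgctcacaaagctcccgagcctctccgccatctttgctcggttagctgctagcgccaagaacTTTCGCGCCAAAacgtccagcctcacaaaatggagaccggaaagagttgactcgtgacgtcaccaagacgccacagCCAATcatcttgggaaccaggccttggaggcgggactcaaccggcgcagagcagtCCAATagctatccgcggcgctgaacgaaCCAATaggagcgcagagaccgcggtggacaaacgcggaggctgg
Mcm3: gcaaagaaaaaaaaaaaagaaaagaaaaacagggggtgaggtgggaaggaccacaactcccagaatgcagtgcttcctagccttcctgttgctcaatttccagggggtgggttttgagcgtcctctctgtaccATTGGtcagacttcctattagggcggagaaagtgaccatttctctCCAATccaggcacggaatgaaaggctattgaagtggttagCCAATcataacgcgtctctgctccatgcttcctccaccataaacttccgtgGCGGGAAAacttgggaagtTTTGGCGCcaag
Mcm2: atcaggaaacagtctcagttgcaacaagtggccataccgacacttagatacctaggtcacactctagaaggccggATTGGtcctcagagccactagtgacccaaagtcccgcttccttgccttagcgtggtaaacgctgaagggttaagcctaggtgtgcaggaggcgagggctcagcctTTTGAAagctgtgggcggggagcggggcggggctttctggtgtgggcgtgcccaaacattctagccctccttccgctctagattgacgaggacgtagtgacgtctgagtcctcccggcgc
Cdc6: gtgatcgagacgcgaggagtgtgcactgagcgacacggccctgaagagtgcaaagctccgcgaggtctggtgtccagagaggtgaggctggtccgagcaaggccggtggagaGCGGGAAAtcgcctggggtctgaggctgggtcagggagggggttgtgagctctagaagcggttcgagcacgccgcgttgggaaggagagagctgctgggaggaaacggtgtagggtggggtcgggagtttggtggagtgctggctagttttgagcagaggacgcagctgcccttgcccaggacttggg

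The Mcm5 window held 2 E2F-like matches that overlap each other and 3 CCAAT boxes. The Mcm3 window held 2 E2F-like matches, both downstream of the start, and 3 CCAAT boxes. The Mcm2 window held none of the E2F-like letters, 1 CCAAT box and 1 TTTGAA, and the Cdc6 window held 1 E2F-like match alone. The Cdc6 window lies inside the mm10 gene model, which starts upstream of it at 98907801. The bases before that start were not searched. RefSeq windows were found for 35 of the 44 genes, with more than 1 window for some. An E2F-like match stood in at least 1 window of 18 of these 35 genes (51.4%), against 7.85% of the 9559 tested genes with a window and 4.55% of all 27025 genes with one. A CCAAT box stood in 22 of the 35 (62.9%), against 42.6% of tested genes and 41.1% of all genes. TTTGAA stood in 8 of the 35 (22.9%), against 14.1% and 20.2%. The log2 fold change, irradiated over untreated and with no filter on low counts, ran from 0.29 to 2.35 in the 18 genes with an E2F-like match. It ran from -0.34 to 1.53 in the 17 without. The medians were close, at 0.72 with a match and 0.71 without. The median was 0.79 in the 22 genes with a CCAAT box and 0.64 in the 13 without. It was 0.75 in the 8 genes with TTTGAA and 0.71 in the 27 without. These differences were not tested. A match is a run of letters and not a bound site.

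Gene counts totalled 7108359 to 14454646 in the irradiated libraries and 12722189 to 15036193 in the untreated ones. Cdkn1a, the p53 target that encodes p21, stood at 21.7, 25.9 and 18.0 CPM (counts scaled to a common library size, with TMM factors for composition) in irradiated replicates 1, 2 and 3, against 2.14, 1.83 and 2.26 CPM in untreated replicates 1, 2 and 3, with no overlap and an edgeR adjusted p of 2.03e-09. Of 10 p53 targets 8 rose (Cdkn1a, Ccng1, Eda2r, Zmat3, Phlda3, Gdf15, Polk and Ephx1). The 10 acinar markers together took 370022 to 469442 CPM in irradiated and 409592 to 492809 CPM in untreated libraries, mostly Bpifa2 and Amy1. Car6 alone of the 10 fell by edgeR, where 0.349% of all tested genes fell. At an unadjusted p under 0.05, 5 were lower and 0 higher, where 7.46% of all tested genes were lower and 7.51% higher. Without overlap 4 were lower, as were 10.6% of all tested genes. The median log2 fold change was -0.27, with 7 negative and 3 positive, the highest at 2.10. The part of these acinar changes in the replication gene values was not tested. Irradiated replicate 2 stands apart: it was the shallowest, reads left without an alignment made up 10.01% of it, where the other libraries had at most 4.33%, and 184 of its reads were set aside for low mapping quality, against 342749 to 491591 elsewhere. Untreated replicate 2 stands apart in lymphocyte markers, described further on. In whole tissue, fewer cells of a type and less RNA per cell cannot be told apart.

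The replication genes are rare messages in this gland. Together the 44 took 258.5, 216.4 and 190.2 CPM in irradiated replicates 1, 2 and 3, against 150.1, 157.8 and 160.6 CPM in untreated replicates 1, 2 and 3. Every irradiated library lay above every untreated one, and the irradiated libraries were more spread, with a mean of 221.7 ± 34.5 CPM against 156.1 ± 5.46 CPM (SD, n = 3 each). Relative to the untreated mean of each gene, the median of the 44 genes on the log2 CPM scale was 0.90, 0.62 and 0.40 in irradiated replicates 1, 2 and 3, and -0.16, 0.04 and 0.12 in untreated replicates 1, 2 and 3. Irradiated replicate 1 was the highest of the 6 libraries for 29 of the 44 genes, irradiated replicate 2 for 11 and irradiated replicate 3 for 1. An untreated library was the highest for 3 genes, all of them in untreated replicate 3.

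**Figure D1:**
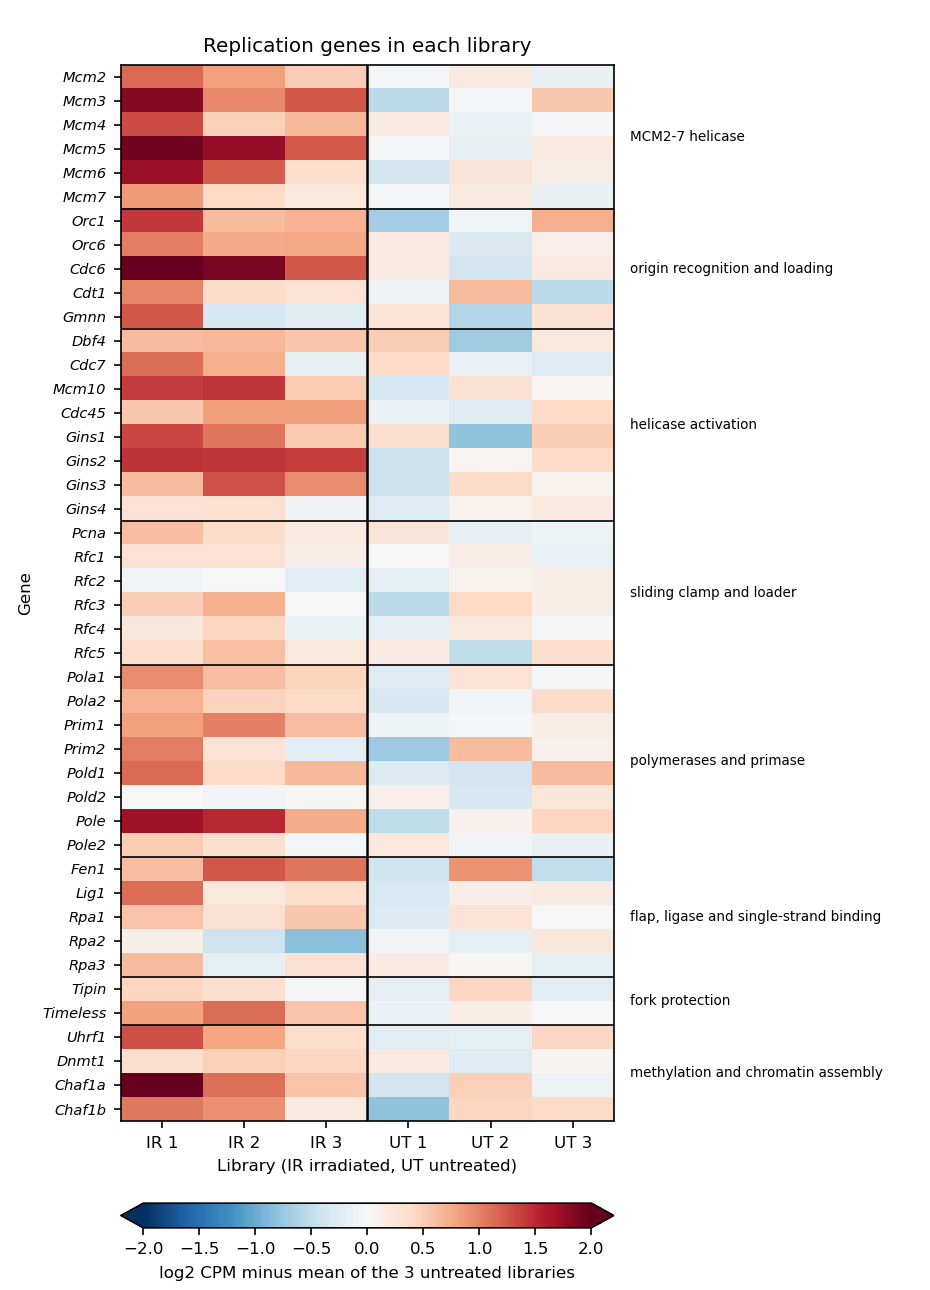
Each cell gives the log2 CPM of a replication gene (rows, grouped by role) in a library (columns; IR irradiated, UT untreated) minus the mean of the 3 untreated libraries, with red above and blue below. Irradiated replicate 1 is the reddest column, with a median of 0.90, and the clamp loader rows are the palest block.

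Of the 44 genes, 38 passed a filter on low counts and were tested with edgeR's quasi-likelihood test, and 6 did not (Orc1, Cdc7, Mcm10, Gins1, Gins2 and Fen1). Over all 12885 tested genes, with Benjamini-Hochberg adjustment and a threshold of 0.05, 3 of the 38 rose, 0 fell and 35 did not pass, where 0.652% of all tested genes rose and 0.349% fell. At an unadjusted p under 0.05, 18 were higher and 0 lower, where 7.51% of all tested genes were higher and 7.46% lower. The irradiated libraries lay above the untreated ones without overlap for 21 of the 38, and below for 0, where each holds for 10.6% of all tested genes. Log2 fold changes, irradiated over untreated, were positive for 35 and negative for 3, where 49.1% of all tested genes were positive and 50.9% negative, and their median was 0.56 against -0.01 over all tested genes. Of the 38, 2 (Cdc6 and Gins3) reached the level the filter asks for in no untreated library, and another 4 (Gmnn, Pole, Chaf1a and Chaf1b) in only some, so these counts favour genes that are high after irradiation. With no filter all 44 genes entered the fit, 41 were positive, against 51.0% of 25422 genes, and 7 rose, against 1.10%.

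**Figure D2:**
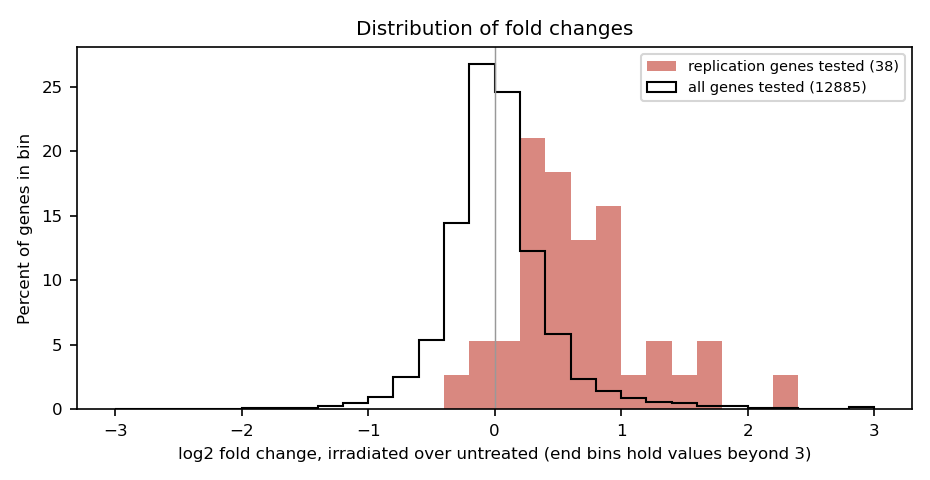
The x axis gives the log2 fold change, irradiated over untreated, in bins of equal width, and the y axis the percent of genes in each bin, for the 38 replication genes tested (filled) and all 12885 tested genes (line). The replication genes lie to the right, with a median of 0.56 against -0.01.

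The helicase subunits had the largest median log2 fold change of the role groups, 1.07. MCM2-7 is a ring of 6 related ATPases, 1 from each gene. Each of the 6 genes was higher in every irradiated library than in any untreated one, as were 10.6% of all tested genes. For Mcm6 and Mcm7 the margin was narrow. Mcm5 (ENSMUSG00000005410; chromosome 8, 75109569 to 75128439, build mm10) had 7.24, 6.36 and 4.39 CPM in irradiated replicates 1, 2 and 3, against 1.72, 1.57 and 2.06 CPM in untreated replicates 1, 2 and 3. The irradiated libraries stood far above the untreated ones, which lay close together. The change was 1.74 ± 0.29 (log2 fold change ± SE), at an edgeR adjusted p of 0.00413.

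Mcm3 (ENSMUSG00000041859; chromosome 1, 20802968 to 20820312) had 7.38, 3.96 and 4.83 CPM in irradiated replicates 1, 2 and 3, against 1.31, 1.92 and 2.93 CPM in untreated replicates 1, 2 and 3. Irradiated replicate 1 was the highest by a wide margin, and untreated replicate 3 came nearest to the irradiated libraries. The log2 fold change was 1.39 ± 0.32 (SE), at an edgeR adjusted p of 0.0405. Mcm2 (ENSMUSG00000002870; chromosome 6, 88883474 to 88898780) had 11.8, 9.48 and 7.50 CPM in irradiated replicates 1, 2 and 3, against 5.17, 6.02 and 4.73 CPM in untreated replicates 1, 2 and 3. The untreated libraries lay close together and the irradiated ones did not. The log2 fold change was 0.86 ± 0.20 (SE), at an edgeR adjusted p of 0.0454.

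The other 3 subunits did not pass. Mcm6 had 9.70, 6.72 and 3.62 CPM in irradiated replicates 1, 2 and 3, against 2.14, 3.40 and 3.06 CPM in untreated replicates 1, 2 and 3, with a log2 fold change of 1.23 ± 0.33 (SE) and an edgeR adjusted p of 0.0842. Irradiated replicate 3 stood just above the untreated range. Mcm4 had 9.57, 5.28 and 6.03 CPM in irradiated replicates 1, 2 and 3, against 4.27, 3.40 and 3.66 CPM in untreated replicates 1, 2 and 3, a log2 fold change of 0.90 ± 0.25 (SE) at an edgeR adjusted p of 0.0793. Mcm7 had the smallest difference of the ring, at 10.5, 7.68 and 6.72 CPM in irradiated replicates 1, 2 and 3 against 5.67, 6.55 and 5.19 CPM in untreated replicates 1, 2 and 3, a log2 fold change of 0.53 ± 0.21 (SE) at an edgeR adjusted p of 0.221. Of the Mcm7 exons 12.6% overlap other annotated genes, among them Cops6 and Ap4m1 on the opposite strand.

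The 3 calls rest on few libraries. Without irradiated replicate 1 none of them held: the edgeR adjusted p was 0.0569 for Mcm5, 0.288 for Mcm3 and 0.288 for Mcm2, with log2 fold changes of 1.57, 1.08 and 0.67. Mcm5 kept its call when any other single library was left out. Mcm3 kept it only without irradiated replicate 2 or untreated replicate 3, and Mcm2 only without irradiated replicate 3. Limma-voom called none of the 3, and edgeR without robust shrinkage called Mcm5 alone, while DESeq2 called all 3 and Mcm6. Mcm2 also lost its call under the correction for length and GC content (edgeR adjusted p = 0.0573).

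Per length, the subunit messages stood closer together in irradiated glands. On the scale of CPM per kb of exonic length, the group means of the 6 genes ran from 1.38 (Mcm2) to 1.94 (Mcm4) in irradiated and from 0.447 (Mcm5) to 1.31 (Mcm7) in untreated glands. The exonic length merges the exons of all annotated transcripts of a gene, so it can exceed the length of the message. It was 6956 bases for Mcm2 and 3589 for Mcm4, and the order and ratios of the subunits depend on it. The ratio of the highest to the lowest subunit in a library was 1.58, 1.64 and 2.17 in irradiated replicates 1, 2 and 3, and 3.66, 3.76 and 2.27 in untreated replicates 1, 2 and 3. The ranges of this ratio did not overlap, though irradiated replicate 3 and untreated replicate 3 were nearly level. The lowest subunit rested on 16 counts in untreated replicate 1 (Mcm3) and 18 in untreated replicate 2 (Mcm5), and few counts can widen the ratio. For the GINS genes the ratio was 24.3 to 30.4 in irradiated and 75.9 to 179.2 in untreated libraries. The lowest of them in every library was Gins2, at only 1, 2 and 4 counts in untreated replicates 1, 2 and 3. For the RPA genes the ratio leaned the other way, at 2.0 to 3.9 in irradiated and 1.4 to 2.1 in untreated libraries, with overlap. It also overlapped for Rfc2 to Rfc5, at 1.94 to 2.16 in irradiated and 2.15 to 3.05 in untreated libraries. For polymerase alpha with primase it was 2.60 to 3.79 and 2.42 to 3.33, again with overlap. Mcm5, Mcm3 and Mcm6, the lowest of the ring in untreated glands, had the largest log2 fold changes of the ring, and Mcm7, the highest, had the smallest. The untreated level enters both sides of that comparison, which was not tested.

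**Figure D3:**
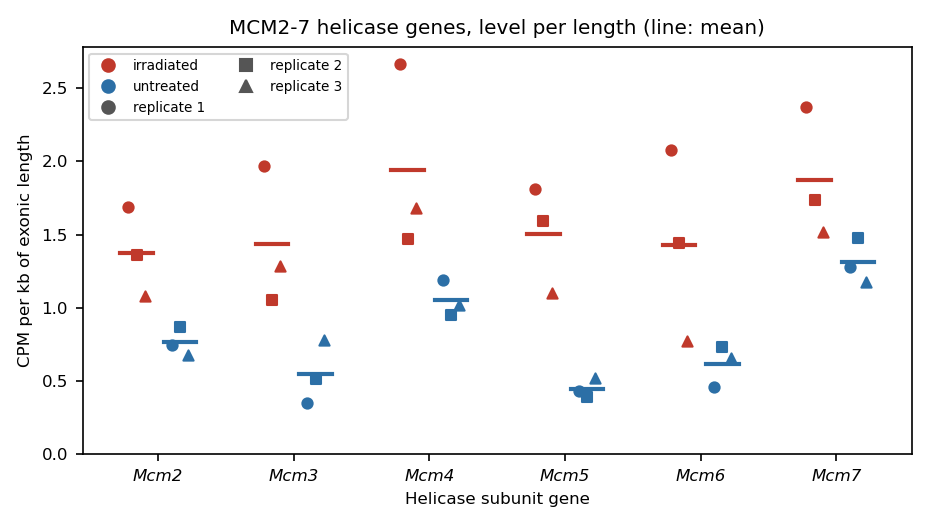
The y axis gives CPM per kb of exonic length for the 6 helicase subunit genes (x axis), with 1 point per library, irradiated left (red) and untreated right (blue), marker shapes for replicates and lines for means. Means span 1.38 to 1.94 in irradiated and 0.447 to 1.31 in untreated glands.

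Among the genes that load the helicase, Cdc6, the ATPase that joins the origin recognition complex to the incoming ring, had the largest fold change of the tested replication genes but did not pass. It had 2.13, 1.44 and 0.862 CPM in irradiated replicates 1, 2 and 3, against 0.329, 0.175 and 0.333 CPM in untreated replicates 1, 2 and 3. These values rest on 32, 12 and 10 counts in the irradiated libraries and 4, 2 and 5 in the untreated ones. The libraries did not overlap, and the log2 fold change was 2.36 ± 0.58 (SE), at an edgeR adjusted p of 0.054. Orc6, a subunit of the origin recognition complex, had 3.92, 3.24 and 3.27 CPM in irradiated replicates 1, 2 and 3, against 2.14, 1.48 and 2.00 CPM in untreated replicates 1, 2 and 3. The log2 fold change was 0.89 ± 0.32 (SE) at an edgeR adjusted p of 0.172. Cdt1, which brings the ring to the origin complex and CDC6, and Gmnn, which encodes its inhibitor geminin, had log2 fold changes of 0.56 and 0.44 with overlapping libraries, and Gmnn stood at 3.19 CPM in irradiated replicate 1 but at 0.96 and 1.03 CPM in irradiated replicates 2 and 3. Orc1, the largest subunit of that complex, was below the filter at 8, 2 and 3 counts in irradiated replicates 1, 2 and 3, against 0, 1 and 4 counts in untreated replicates 1, 2 and 3.

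Of the 8 genes that activate the helicase, 4 were tested, and none passed by edgeR or DESeq2 or had an unadjusted p under 0.05. Cdc45, the partner of MCM2-7 and GINS in the active helicase, had 1.93, 2.40 and 2.41 CPM in irradiated replicates 1, 2 and 3, against 1.15, 1.05 and 1.73 CPM in untreated replicates 1, 2 and 3, a log2 fold change of 0.75 ± 0.39 (SE) at an edgeR adjusted p of 0.385. Gins3, a GINS subunit, had 0.864, 1.44 and 1.12 CPM in irradiated replicates 1, 2 and 3, against 0.329, 0.698 and 0.533 CPM in untreated replicates 1, 2 and 3, a log2 fold change of 1.09 ± 0.54 (SE) at an edgeR adjusted p of 0.352. Both had libraries that did not overlap, as had Dbf4, the activator of CDC7, at a log2 fold change of 0.57. Gins4, another GINS subunit, stood at 6.61 ± 0.949 CPM in irradiated and 5.87 ± 0.929 CPM in untreated glands (SD, n = 3 each), with overlapping libraries and a log2 fold change of 0.17. The 4 genes below the filter, Cdc7, Mcm10, Gins1 and Gins2, had log2 fold changes from 0.77 to 1.93 in the fit with no filter, and none was called there. Gins2 had 11, 6 and 8 counts in irradiated replicates 1, 2 and 3, against 1, 2 and 4 counts in untreated replicates 1, 2 and 3, but 67.3% of its exonic bases also belong to Gse1 on the opposite strand.

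The clamp and its loader had the lowest median log2 fold change of the role groups, 0.29. Pcna, the sliding clamp and by CPM per kb the most abundant of the 44 genes, had 27.8, 23.4 and 20.6 CPM in irradiated replicates 1, 2 and 3, against 21.6, 16.1 and 17.0 CPM in untreated replicates 1, 2 and 3. The groups overlapped, since untreated replicate 1 lay above irradiated replicate 3, and the log2 fold change of 0.40 ± 0.14 (SE) missed the threshold (edgeR adjusted p = 0.171). Rfc1, the large subunit of the clamp loader, had 21.9, 21.7 and 19.6 CPM in irradiated replicates 1, 2 and 3, against 17.7, 19.6 and 16.3 CPM in untreated replicates 1, 2 and 3. Irradiated replicate 3 and untreated replicate 2 were level, and the log2 fold change was 0.24 ± 0.12 (SE) at an edgeR adjusted p of 0.383. The 4 small subunits, Rfc2 to Rfc5, had overlapping libraries and log2 fold changes from -0.10 (Rfc2) to 0.39 (Rfc3). Scaled by library totals alone, the Rfc2 value turned positive, at 0.04.

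The polymerases were uneven. Pole, the catalytic subunit of the leading strand polymerase epsilon, had 2.46, 2.16 and 1.21 CPM in irradiated replicates 1, 2 and 3, against 0.411, 0.698 and 0.932 CPM in untreated replicates 1, 2 and 3, with no overlap, a log2 fold change of 1.48 ± 0.48 (SE) and an edgeR adjusted p of 0.136. Its smaller partner Pole2 had a log2 fold change of 0.30 with overlapping libraries. Prim1, the catalytic subunit of primase, had 4.19, 4.80 and 3.62 CPM in irradiated replicates 1, 2 and 3, against 2.14, 2.27 and 2.53 CPM in untreated replicates 1, 2 and 3, a log2 fold change of 0.85 ± 0.29 (SE) at an edgeR adjusted p of 0.154. Pola1 and Pola2, of polymerase alpha, had log2 fold changes of 0.72 and 0.51, each without overlap, and Prim2, the other primase subunit, 0.41 with overlap. In polymerase delta, the catalytic Pold1 had a log2 fold change of 0.73, and the accessory Pold2 had -0.03, at 7.49 ± 0.277 CPM in irradiated and 7.63 ± 1.54 CPM in untreated glands (SD, n = 3 each). The Pold2 value was positive under scaling by library totals alone and under a correction for length and GC content.

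Of the factors that finish or guard the strands, Rpa1, the large subunit of the single-strand binding protein RPA, had 21.3, 17.8 and 20.9 CPM in irradiated replicates 1, 2 and 3, against 11.8, 17.5 and 14.2 CPM in untreated replicates 1, 2 and 3. The lowest irradiated and the highest untreated library nearly met, and the log2 fold change was 0.47 ± 0.15 (SE) at an edgeR adjusted p of 0.125. Rpa2, of the same trimer, pointed the other way, at 5.65, 3.84 and 2.84 CPM in irradiated replicates 1, 2 and 3, against 5.01, 4.54 and 6.13 CPM in untreated replicates 1, 2 and 3. Its log2 fold change of -0.33 ± 0.27 (SE) was the lowest of the tested replication genes, its libraries overlapped, and it missed the threshold (edgeR adjusted p = 0.607). Lig1, the ligase that joins lagging strand fragments, had 7.58, 3.96 and 4.39 CPM in irradiated replicates 1, 2 and 3, against 2.71, 3.75 and 3.86 CPM in untreated replicates 1, 2 and 3. The groups did not overlap, but irradiated replicates 2 and 3 lay just above the untreated range, and the log2 fold change was 0.65 ± 0.28 (SE) at an edgeR adjusted p of 0.277. Fen1, the flap nuclease, had 1 to 6 counts per library and could not be measured at this depth, and 84.2% of its exonic bases overlap genes on the opposite strand. Rpa3, the small RPA subunit, had a log2 fold change of 0.33 with overlapping libraries. Of the pair that protects paused forks, Timeless had 2.46, 3.12 and 2.07 CPM in irradiated replicates 1, 2 and 3, against 1.23, 1.48 and 1.33 CPM in untreated replicates 1, 2 and 3, without overlap, a log2 fold change of 0.90 ± 0.38 (SE) at an edgeR adjusted p of 0.259, and Tipin had 5.38, 5.04 and 3.88 CPM in irradiated replicates 1, 2 and 3, against 3.45, 5.32 and 3.33 CPM in untreated replicates 1, 2 and 3, with overlap and a log2 fold change of 0.25 ± 0.26 (SE) at an edgeR adjusted p of 0.709.

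Behind the fork, UHRF1 reads half-methylated DNA, DNMT1 copies the methylation, and the CAF-1 subunits encoded by Chaf1a and Chaf1b place new histones. Chaf1a had 3.52, 1.44 and 0.948 CPM in irradiated replicates 1, 2 and 3, against 0.411, 0.873 and 0.533 CPM in untreated replicates 1, 2 and 3, a log2 fold change of 1.74 ± 0.54 (SE) at an edgeR adjusted p of 0.121. Irradiated replicate 1 was far above the rest, and 52.5% of the exonic bases of Chaf1a overlap Ubxn6 on the opposite strand. Uhrf1 had 7.31, 5.16 and 3.71 CPM in irradiated replicates 1, 2 and 3, against 2.46, 2.53 and 3.93 CPM in untreated replicates 1, 2 and 3, a log2 fold change of 0.86 ± 0.29 (SE) at an edgeR adjusted p of 0.158, and irradiated replicate 3 lay below untreated replicate 3. Dnmt1 had 11.4 ± 0.655 CPM in irradiated and 8.64 ± 1.37 CPM in untreated glands (SD, n = 3 each), without overlap, and Chaf1b had a log2 fold change of 0.72 with overlapping libraries.

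**Figure D4:**
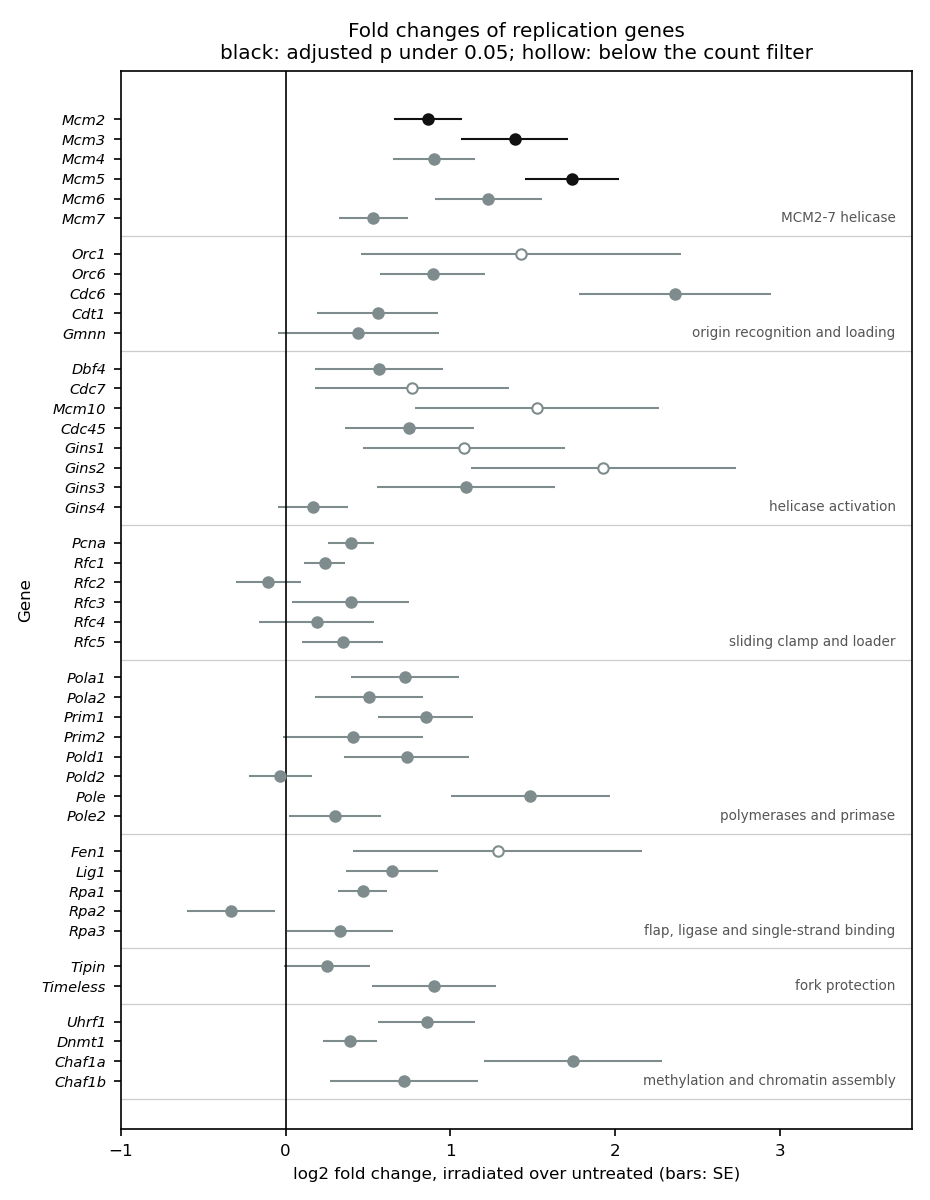
The x axis gives the log2 fold change, irradiated over untreated, with bars for the SE, for the 44 genes (y axis) in their role groups. Black points passed the threshold (Mcm2, Mcm3 and Mcm5), grey ones did not, and hollow ones were below the filter and come from the fit with no filter.

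Further genes of the cell cycle and of DNA supply are given as counts and medians, beside the -0.01 of all tested genes. Of all tested genes 0.652% rose by edgeR, and at an unadjusted p under 0.05 7.51% were higher and 7.46% lower. Of 38 further replication genes, among them the other origin recognition subunits and fork accessory factors, 27 were tested, 0 passed by edgeR and 7 had an unadjusted p under 0.05, all higher. DESeq2 called 1 of them. Their median log2 fold change was 0.20. Dtl, the substrate receptor that marks CDT1 for destruction, had 3.19, 2.76 and 1.55 CPM in irradiated replicates 1, 2 and 3, against 0.739, 0.698 and 0.799 CPM in untreated replicates 1, 2 and 3, a log2 fold change of 1.73 ± 0.44 (SE) at an edgeR adjusted p of 0.0558. Top2a, the topoisomerase of dividing cells, had a log2 fold change of 0.78 ± 0.23 (SE) at an edgeR adjusted p of 0.102. It is also counted among the mitosis genes below. The other origin recognition subunits in that list, Orc2, Orc3, Orc4 and Orc5, had log2 fold changes of -0.06, 0.20, -0.20 and 0.50 and did not pass.

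Of 12 genes that supply deoxynucleotides, all were tested and 0 passed by edgeR or DESeq2, 3 had an unadjusted p under 0.05, and the median log2 fold change was 0.28. Rrm1, of ribonucleotide reductase, and Tyms, thymidylate synthase, had log2 fold changes of 0.53 ± 0.19 (SE) and 0.73 ± 0.29 (SE), with edgeR adjusted p values of 0.188 and 0.226. Of 14 genes of histone supply and chromatin copying, 13 were tested, 0 passed by edgeR or DESeq2 and 4 had an unadjusted p under 0.05, with a median of 0.09. Atad2 and Slbp, the histone mRNA binding protein, had the smallest p values, at log2 fold changes of 0.81 and 0.66. Of 19 E2F and DREAM complex regulators, 16 were tested, 0 passed by edgeR or DESeq2 and 4 had an unadjusted p under 0.05, with a median of 0.19. E2f1, an activator of S phase genes, had 4.52, 3.12 and 3.53 CPM in irradiated replicates 1, 2 and 3, against 1.81, 2.09 and 2.26 CPM in untreated replicates 1, 2 and 3, a log2 fold change of 0.87 ± 0.31 (SE) at an edgeR adjusted p of 0.171, and Rb1, its repressor, had 0.56 ± 0.20 (SE) at 0.172. Of 10 S phase kinases and cyclins, 9 were tested, 0 passed by edgeR or DESeq2 and 2 had an unadjusted p under 0.05, with a median of 0.17. The log2 fold change was 1.12 ± 0.37 (SE) for Ccna2, cyclin A, and 0.81 ± 0.36 (SE) for Cdk1, at edgeR adjusted p values of 0.146 and 0.299.

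Of 20 mitosis genes, 16 were tested and 1 rose, where 0.652% of all tested genes rose. At an unadjusted p under 0.05, 9 were higher and 0 lower, where 7.51% of all tested genes were higher and 7.46% lower. All 16 had positive log2 fold changes, as had 49.1% of all tested genes, and 10 were higher without overlap, as were 10.6%. The median log2 fold change was 1.07. Mki67, the antigen of cycling cells, had 19.4, 12.97 and 11.6 CPM in irradiated replicates 1, 2 and 3, against 6.49, 7.68 and 8.12 CPM in untreated replicates 1, 2 and 3, with the same order of the irradiated libraries as the sum of the replication genes. The edgeR adjusted p of Mki67 was 0.0151, and no mitosis gene was called without irradiated replicate 1 or without untreated replicate 1 or 2.

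Markers of lymphocytes moved with the replication genes between the groups. The 13 T cell markers together stood at 41.2, 58.3 and 45.3 CPM in irradiated replicates 1, 2 and 3, against 18.8, 2.01 and 18.8 CPM in untreated replicates 1, 2 and 3. Of the 12 tested, 2 rose (Cd5 and Cd8b1), where 0.652% of all tested genes rose. All 12 had positive log2 fold changes, with a median of 1.76. Of these, 11 were higher without overlap and 9 at an unadjusted p under 0.05, where 10.6% and 7.51% of all tested genes were. The 10 B cell markers stood at 42.4, 41.9 and 41.5 CPM in irradiated replicates 1, 2 and 3, against 22.2, 0.611 and 12.5 CPM in untreated replicates 1, 2 and 3, and 1 of the 8 tested rose (Bank1). All 8 had positive log2 fold changes, with a median of 1.87, and were higher without overlap, and 4 were higher at an unadjusted p under 0.05. Untreated replicate 2, nearly without these markers, had 157.8 CPM of replication genes, between the other untreated libraries. Among the irradiated libraries, replicate 2 was the highest in T cell markers while replicate 1 was the highest in replication genes. Without untreated replicate 2, the median log2 fold change of the tested replication genes was 0.69, and 1 of them was called. Rag1, Rag2 and Ptcra, among 7 thymocyte markers, had 0 counts in all libraries. Macrophage and dendritic cell markers stood at 84.5 to 91.0 CPM in irradiated and 88.6 to 105.5 CPM in untreated libraries. Thymocyte markers stood at 14.6 to 19.6 CPM in irradiated and 4.89 to 12.7 CPM in untreated libraries. That difference lay in Tcf7, which mature T cells also express, with means of 11.7 CPM in irradiated and 3.77 CPM in untreated glands, while Cd1d1 had 5.57 and 5.58 CPM. Plasma cell markers stood at 286.8 to 447.1 CPM in irradiated and 395.4 to 486.0 CPM in untreated libraries, but nearly all of it was Xbp1, which secretory cells in general express, with means of 348.5 and 422.2 CPM. Neutrophil markers, with Ly6g at 0 throughout, stood at 0.862 to 1.196 CPM in irradiated and 0.436 to 0.799 CPM in untreated libraries. Among resident cells, duct markers stood at 1806 to 2075 CPM in irradiated and 2107 to 2444 CPM in untreated libraries, basal and myoepithelial markers at 58.8 to 85.7 and 80.8 to 92.0 CPM, and endothelial markers at 75.6 to 88.2 and 65.2 to 73.0 CPM. Fibroblast markers stood at 834.9 to 1134 CPM in irradiated and 1039 to 1703 CPM in untreated libraries, fat cell markers at 111.7 to 189.1 and 145.6 to 297.6 CPM, skeletal muscle markers at 149.1 to 448.1 and 462.6 to 571.2 CPM, and red blood cell markers at 26.5 to 60.9 and 50.9 to 87.8 CPM. None of these markers of other cell types passed the test in either direction, and at an unadjusted p under 0.05 there were 4 higher and 7 lower. The part of lymphocytes in the replication gene values was not tested.

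**Figure D5:**
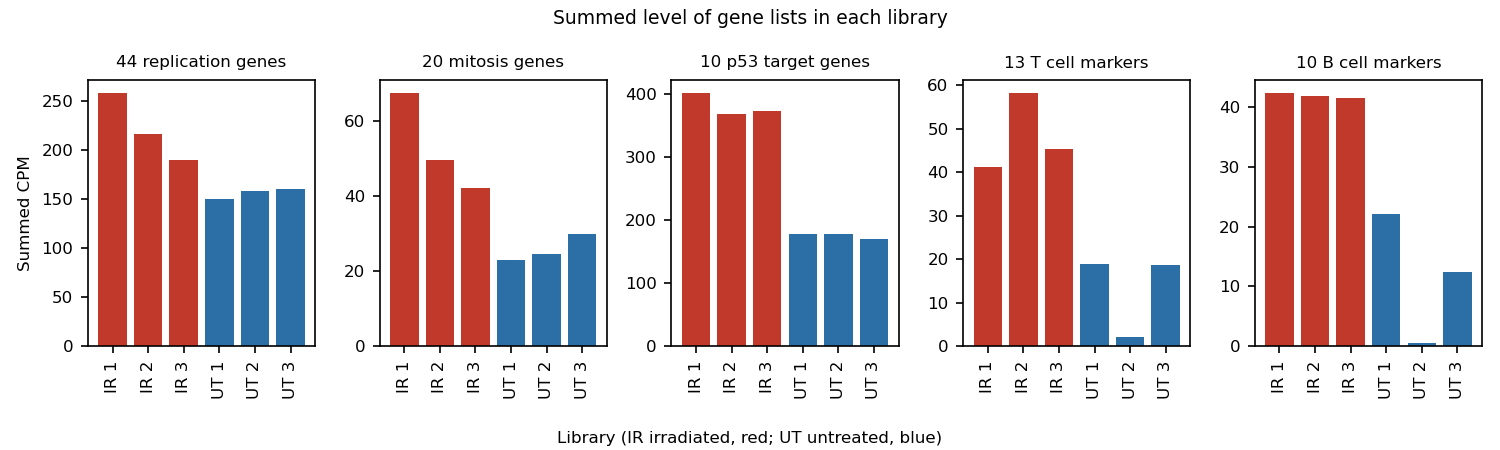
Bars give the summed CPM (y axes, each from 0) of 5 gene lists in each library (x axes; IR irradiated, red, left; UT untreated, blue, right). The replication and mitosis sums fall from IR 1 to IR 3 while the T cell sum is highest in IR 2, and UT 2, with 2.01 CPM of T cell and 0.611 CPM of B cell markers, has a replication sum of 157.8 CPM.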

How the data were processed

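RNA was measured in 6 parotid gland libraries made with a stranded total RNA kit, per the labels' protocols. The authors deposited 1 table per sample of raw read counts by Ensembl gene. The submitters' processing notes name bcl2fastq, HISAT2, HTSeq and mm10; versions, annotation release and strand setting are not given in the sources used here, so exons shared with an opposite-strand gene are uncertain. Summary rows without a gene took 32.4% to 40.7% of reads and were left out. Symbols, positions and exonic lengths came from GENCODE M21 (mm10); promoters came from RefSeq (GRCm38.p6).

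Genes were tested by quasi-likelihood in edgeR 4.0.16 (R 4.3.3; robust, TMM, filterByExpr with minimum count 10), 3 irradiated against 3 untreated libraries, with Benjamini-Hochberg adjustment over 12885 genes and a threshold of 0.05. The test was also run on simulated counts, drawn gene by gene from the means and dispersions of these data. Such counts cannot show an effect that many genes of a library share. Each SE is the absolute log2 fold change over the root of F. CPM use TMM factors, and log2 CPM a prior count of 2. Alternatives were limma 3.58.1 (voom), DESeq2 1.42.0, other scalings and filters, a length and GC correction (mgcv 1.9.3), a replicate block and leaving out each library. Full values are given for called genes, the helicase subunits and the 2 genes of smallest p in each role. From each further list the called genes, or else the 2 of smallest p, are named. Orc2, Orc3, Orc4, Orc5, Cd1d1, Tcf7, Xbp1, Rpa2, Gins4, Pold2 and Gins2 were named after their values were seen. Some markers are not reported here. Genes and lists were chosen with earlier results of these data known.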

Additional observations from a re-analysis of the deposited data

Results flagged for a closer look

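The share of reads that were not aligned was 10.01% in irradiated replicate 2, above the 3.98% to 4.33% of the untreated libraries. Without this library 2 replication genes were called and the median log2 fold change of those tested was 0.65.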

How the results depend on the processing

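Across 15 alternatives, the median log2 fold change of the tested replication genes stayed positive, from 0.43 to 0.71 (0.43 to 0.71 when 1 library was left out), and no replication gene was called lower. The 3 genes called higher became 7 with library totals alone, 7 with no count filter, 0 with limma-voom, 1 without robust shrinkage, 1 with the replicate block, 2 with the length and GC correction with or without the block, and 0 to 4 when 1 library was left out. With 1 library left out, 21 to 32 were higher without overlap and 0 to 1 lower without overlap. Fewer libraries separate more easily, and the share of all tested genes was not counted for these smaller sets. These 2 ranges therefore cannot be read against the share given for all 6 libraries. Over all genes, 84 were called higher and 45 lower. These counts were 259 and 22 with library totals alone, which moved the median of all genes to 0.14 on the log2 scale, 279 and 239 with no filter, 20 and 5 with limma-voom, 21 and 5 without robust shrinkage, 39 and 14 with the replicate block, 70 lower with DESeq2, and 31 to 83 higher and 14 to 72 lower when 1 library was left out. On that scale the median of the replication genes with library totals alone was 0.71. Signs changed for Rfc2 (0.044) and Pold2 (0.10) with library totals alone, for Pold2 with the length and GC correction (0.075, and 0.081 with the replicate block added), and, leaving out 1 library, for Gmnn without irradiated replicate 1 (-0.40), for Prim2 without it (-0.066, in a range of -0.066 to 0.78) and for Pold2 without untreated replicate 1 (0.0016) or 3 (0.099), in a range of -0.18 to 0.099. The cause was not tested. The replicate numbers are not shown to pair the samples: same-numbered libraries deviated from their group means with correlations of 0.02, -0.11 and -0.11, so the block result is given only here. Genes under 10 counts in a library were too shallow to measure closely: 2, 7 and 6 of the 44 in irradiated replicates 1, 2 and 3, against 10, 10 and 8 in untreated replicates 1, 2 and 3.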
